A study of Mus musculus with 7 samples.

Results

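miR-140, miR-151 and miR-139 are microRNAs (miRNAs) whose genes lie inside protein-coding genes, and both arms of each were followed here, 6 of the 1881 miRNA names on the array. The 6 names were chosen by host gene, with their signal on these same arrays already known. That signal included the difference between the disease models, in which miR-151-5p, miR-139-5p and both miR-140 arms were high in myocarditis-model cells. Differences between the models are therefore given below as a description of these names, and limma's calls of them support nothing. The RNA came from mouse CD4+ T cells, mostly helper cells, that had been picked out of draining lymph nodes with antibody-coated beads. There were 4 arrays of EAM, the myocarditis model, at day 6, and 3 arrays of LAD, the myocardial infarction model, at day 3. These days are those of the sample labels, whereas the series text swaps them. Each model was sampled at 1 day, so model and day cannot be told apart, and none of the 7 arrays holds cells of healthy mice. Strain, age and whether an array holds 1 mouse or several are not given in the sources used here, so the spread between arrays may be partly technical.

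An intronic miRNA is cut from the transcript of its host gene or from a transcript of its own. The cut hairpin leaves a 5p and a 3p strand, of which usually 1 is kept by an Argonaute protein and the other is degraded. The strand that is kept pairs with messenger RNAs through its seed, bases 2 to 8, and lowers their translation and stability. Wwp2, the host of miR-140, encodes an E3 ubiquitin ligase, and miR-140 itself is best known from cartilage. Ptk2, the host of miR-151, encodes focal adhesion kinase. Pde2a, the host of miR-139, encodes a phosphodiesterase that degrades cyclic nucleotides, and miR-139-5p is known as a growth-restraining miRNA in human tumour cells. By RefSeq gene spans (GRCm38.p6), all 3 miRNA genes lie inside these hosts, on chromosomes 8, 15 and 7. Mir140 and Mir139 lie on the plus strand, as do Wwp2 and Pde2a. Whether each lies in an intron or an exon was taken from general knowledge, since only gene spans were used here.

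Mature sequences (RefSeq, GRCm38.p6) are shown for the arms that matched by name, because the seed decides the targets and the 3′ part is what the array reads. Capitals mark the seed, bases 2 to 8.
mmu-miR-140-3p: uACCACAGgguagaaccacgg
mmu-miR-139-5p: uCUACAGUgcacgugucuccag
mmu-miR-139-3p: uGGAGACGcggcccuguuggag
miR-140-3p lies at chr8:107551288-107551308, miR-139-5p at chr7:101475382-101475403 and miR-139-3p at chr7:101475418-101475439, each on the plus strand. Names without a match in that table were miR-140-5p, miR-151-5p and miR-151-3p. Among the 1608 array names that have a mature sequence in the table, no other shared the seed of miR-139-5p or miR-139-3p, and 1, miR-497b, shared that of miR-140-3p.

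The hairpin of miR-139 holds both arms that the results turn on, and capitals mark the 5p and then the 3p arm.
Mir139: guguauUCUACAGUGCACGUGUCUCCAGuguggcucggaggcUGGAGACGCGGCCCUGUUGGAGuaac
It spans chr7:101475376-101475443, plus strand, 68 bases.

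Each miRNA was read by 30 spots per array, shared among 2 to 4 probes of different length. The probes of the 3 arms shown are DNA strands that pair with the 3′ end of the miRNA, and a longer probe reaches further toward the seed. Capitals mark the base that each probe has beyond the next shorter one.
miR-140-3p, 14 bases: ccgtggttctaccc
miR-140-3p, 15 bases: ccgtggttctacccT
miR-139-5p, 15 bases: ctggagacacgtgca
miR-139-5p, 16 bases: ctggagacacgtgcaC
miR-139-5p, 17 bases: ctggagacacgtgcacT
miR-139-3p, 13 bases: ctccaacagggcc
miR-139-3p, 14 bases: ctccaacagggccG
The longest probe of miR-140-3p pairs with bases 7 to 21 of the miRNA, that of miR-139-5p with bases 6 to 22 and that of miR-139-3p with bases 9 to 22. No other array name with a sequence in the table held a full match to any of these 7 probes. In the array design (mm9), the probes of miR-140-5p map to chr8:110075151-110075170 and those of miR-140-3p to chr8:110075195-110075208.

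The arrays of the 2 models differed in brightness. EAM arrays detected 445 to 471 miRNAs and LAD arrays 311 to 380, and the 75th percentile of background-corrected spot signal was 27.8 to 35.2 intensity units on EAM arrays and 17.8 to 25.7 on LAD arrays. EAM arrays also resembled each other more, with Pearson's r of 0.993 to 0.998 between pairs across the 423 tested miRNAs, against 0.902 to 0.967 between pairs of LAD arrays. Values were quantile-normalized between arrays, and the part of array brightness in the differences below was not tested. All 6 T cell and leukocyte miRNAs listed for a check of the cell type (such as miR-142a-3p and miR-150-5p) were detected on all 7 arrays. Their summed total gene signal was 41300 to 57200 intensity units on EAM arrays and 2550 to 12500 on LAD arrays, and limma passed 3 of them as higher and 1, miR-181a-5p, as lower in EAM. Of the markers of other cells, 0 of 5 stromal, 0 of 3 muscle and 0 of 2 cartilage miRNAs (miR-455-3p and miR-455-5p) were detected on any array. Endothelial miR-126a-3p was detected on 3 of 4 EAM arrays and 2 of 3 LAD arrays, red-cell miR-451a and myeloid miR-223-3p on all, and the other 3 red-cell markers and miR-223-5p on none. The summed total gene signal of the myeloid markers was 58.2 to 67.3 intensity units on EAM arrays and 24.7 to 75.1 on LAD arrays. On the quantile-normalized scale used for the arms below, miR-223-3p was lower in EAM, at 6.59 ± 0.16 (SD, n = 4) against 8.23 ± 0.83 (SD, n = 3) in LAD, a difference of -1.64 (limma adjusted p = 0.0127) with no overlap between the groups. The red-cell markers summed to 50 to 93.9 on EAM arrays and 9.68 to 32.1 on LAD arrays, the endothelial ones to 0 to 11.2 and 0 to 12.9, and the epithelial ones, of which 2 of 3 were detected, to 22.4 to 35.5 and 0 to 2.73. On the quantile-normalized scale miR-451a differed by -0.14 (limma adjusted p = 0.740). Epithelial miR-203-3p differed there by 1.10 (limma adjusted p = 0.00916) and miR-200c-3p by 0.405 (limma adjusted p = 0.0884). Both epithelial miRNAs entered the fit through EAM alone, where they are high. In such bulk samples, fewer cells of a type and less RNA per cell cannot be told apart, and the part of other cells in the differences was not tested.

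Of the 6 arms, 5 were detected. In the reported values, miR-140-5p, miR-140-3p, miR-151-5p and miR-139-5p had higher signal on every EAM array than on any LAD array. Their group means differed by 1.89 to 2.71 fold. miR-139-3p had nearly the same mean in both models, and miR-151-3p was not detected on any array. The limma fit across 423 miRNAs passed 4 of the 5 arms tested (adjusted p under 0.05), all 4 higher in EAM, where 36.2% of all tested miRNAs passed as higher, 23.6% as lower and 59.8% in either direction. EAM and LAD values did not overlap for the same 4 arms, as for 34% of all tested miRNAs with EAM above LAD and 56.3% in either direction. Since the names were picked with this contrast known, nothing is read from these counts. miR-151-3p was outside the fit, which took miRNAs detected on all arrays of EAM or all arrays of LAD. miR-151-5p and miR-139-3p were not detected on LAD array 3 and entered the fit through EAM alone. For miR-151-5p that is the group where it is high. The differences were set beside a median of 0.31 (log2, EAM minus LAD) over all tested miRNAs.

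**Figure D1:**
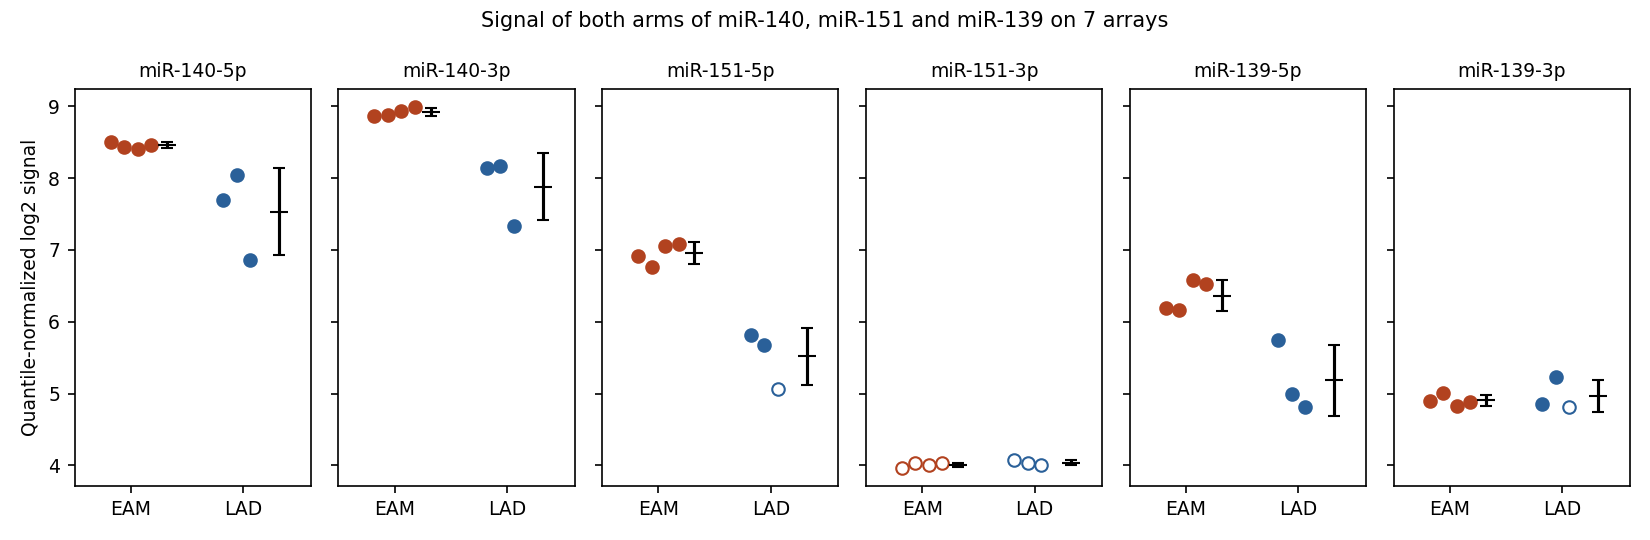
Quantile-normalized log2 signal (vertical axis) of the 6 arms on the 4 EAM and 3 LAD arrays, 1 point per array, filled where the miRNA was detected and open where it was not; the black mark and bar are the group mean ± SD. The EAM points lie above the LAD points for miR-140-5p, miR-140-3p, miR-151-5p and miR-139-5p, overlap for miR-139-3p, and are all open for miR-151-3p; heights are not comparable between arms, which have different probes.

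The 2 arms of miR-140 lay side by side. The array's full name for each arm has the mouse prefix, as in mmu-miR-140-3p. This arm had log2 signals of 8.87, 8.88, 8.94 and 8.99 on the EAM arrays and 8.14, 8.17 and 7.34 on the LAD arrays. LAD array 3 was the lowest and the other LAD arrays were close to each other. EAM averaged 8.92 ± 0.053 (SD, n = 4) and LAD 7.88 ± 0.47 (SD, n = 3), which is 2.05-fold higher in EAM (difference 1.04 log2, standard error 0.21 from the limma fit). mmu-miR-140-5p, which restrains Hdac4 in mouse cartilage, had 8.51, 8.44, 8.41 and 8.46 in EAM and 7.70, 8.04 and 6.86 in LAD. Again LAD array 3 was the lowest, and LAD array 2 came nearest to EAM. EAM averaged 8.46 ± 0.044 (SD, n = 4) and LAD 7.53 ± 0.61 (SD, n = 3), which is 1.89-fold higher in EAM (difference 0.92 log2, standard error 0.26). Without LAD array 3 the differences were 0.77 for miR-140-3p and 0.59 for miR-140-5p. For both arms the LAD arrays differed among themselves by more than the EAM arrays did.

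miR-140 was also bright in the scanner's own units before any scaling. The total gene signal of miR-140-3p was 381, 400, 364 and 481 intensity units in EAM and 45.1, 110 and 21.6 in LAD. That of miR-140-5p was 253, 266, 214 and 295 in EAM and 30.0, 83.3 and 15.3 in LAD. In these units LAD array 2, the brightest LAD array, had the highest LAD value of both arms. Spots of both miR-140-5p probes were 100% well above background on every array, and those of miR-140-3p 93.3% or more, a share that no other arm of the set reached on all 7 arrays.

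mmu-miR-151-5p had the largest difference of the set in the reported values, while that of miR-140-3p was larger without scaling, with median centring and in the authors' table. This arm had log2 signals of 6.92, 6.76, 7.06 and 7.09 in EAM and 5.81, 5.68 and 5.07 in LAD. The groups lay apart, with LAD array 3 the lowest. EAM averaged 6.95 ± 0.15 (SD, n = 4) and LAD 5.52 ± 0.40 (SD, n = 3), which is 2.71-fold higher in EAM (difference 1.44 log2, standard error 0.20). miR-151-5p was not detected on LAD array 3, so that array gives only an upper bound. Its total gene signal was 82.3, 72.1, 74.3 and 94.7 intensity units in EAM and 8.45 and 10.7 on LAD arrays 1 and 2. The longer of its 2 probes had 100% of its spots well above background on the EAM arrays and LAD arrays 1 and 2. On LAD array 3 it had 6.7%. The shorter probe had 100% on the EAM arrays but 6.7%, 26.7% and 0% on LAD arrays 1 to 3. Without LAD array 3 the difference was 1.21.

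The other arm of the same hairpin, mmu-miR-151-3p, was not detected on any of the 7 arrays. Its log2 signals were 3.97, 4.03, 4.00 and 4.03 in EAM and 4.08, 4.04 and 4.00 in LAD, with no order between the groups. All 4 of its probes are short, at 11 to 14 bases, and had at most 14.3% of spots well above background on any array. A difference in miR-151-3p was thus not detectable at this signal.

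In miR-139 the 2 arms parted. mmu-miR-139-5p had log2 signals of 6.19, 6.16, 6.58 and 6.53 in EAM and 5.74, 5.0 and 4.81 in LAD. LAD array 1 came nearest to EAM, and LAD arrays 2 and 3 lay further below. EAM averaged 6.36 ± 0.22 (SD, n = 4) and LAD 5.18 ± 0.50 (SD, n = 3), which is 2.27-fold higher in EAM (difference 1.18 log2, standard error 0.24), or 0.99 without LAD array 3. mmu-miR-139-3p had 4.90, 5.01, 4.83 and 4.88 in EAM and 4.85, 5.23 and 4.82 in LAD. The groups overlapped, and LAD array 2 had the highest value of all 7 arrays. EAM averaged 4.91 ± 0.075 (SD, n = 4) and LAD 4.97 ± 0.23 (SD, n = 3), a difference of -0.06 (EAM minus LAD, log2, standard error 0.14).

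The array that parted the miR-139 arms most was LAD array 2. Against the EAM mean, miR-139-5p was at -1.37 (log2) there and miR-139-3p at 0.32. On LAD array 3 the values were -1.56 and -0.08, and on LAD array 1 they were -0.62 and -0.05. For miR-140 the arms lay together on the same 3 arrays. miR-140-5p was at -0.76, -0.41 and -1.59 on LAD arrays 1, 2 and 3, and miR-140-3p at -0.78, -0.75 and -1.58. The 5p difference minus the 3p difference came to 1.24 (log2) for miR-139 and to -0.12 for miR-140. The gap of miR-139 depended on the processing. It was 0.26 by total gene signal, quantile-normalized in this setting, and 0.61 with local background and an offset of 50. In the authors' table it was 0.77, and 2.18 when scaled by the 75th percentile of all probes. The gap of miR-140 ran between -0.22 and 0.05.

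**Figure D2:**
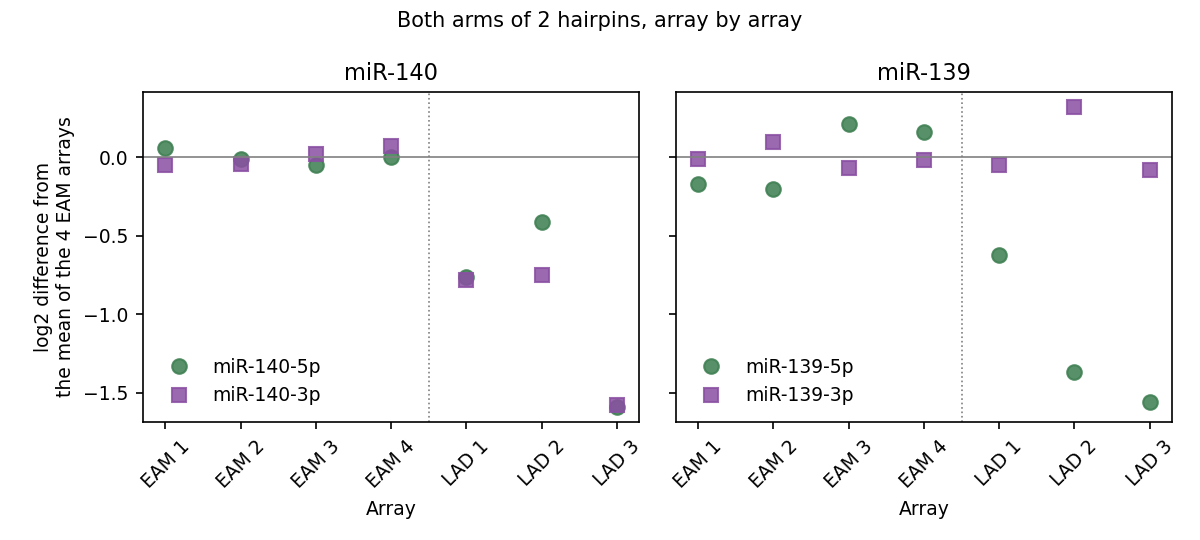
log2 difference of each array from the mean of the 4 EAM arrays (vertical axis), for the 5p arm (circles) and 3p arm (squares) of miR-140 and miR-139, with EAM arrays left of the dotted line and LAD arrays right of it. On the LAD arrays the miR-140 arms lie within 0.34 of each other, while miR-139-5p lies 0.57 to 1.69 below miR-139-3p.

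Across the array, 47 names had both arms tested, with a median gap of 0.90 (log2, sign ignored) between the arms' differences. Arms of opposite sign made up 25 of the 47 pairs. In the reported values, a gap as large as that of miR-139 or larger was found in 29.8% of the pairs, so a parting of this size was common on these arrays, and the gap of miR-140 was the smallest of the 47.

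The signal of miR-139-3p, and that of miR-139-5p on LAD arrays 2 and 3, limits this comparison. miR-139-3p was detected on all 4 EAM arrays and on LAD arrays 1 and 2, with a total gene signal of 11.2, 11, 7.89 and 8.60 intensity units in EAM and 3.47 and 6.51 in LAD. That of miR-139-5p was 49.1, 44.3, 50.2 and 54.7 in EAM and 7.5, 3.29 and 1.61 in LAD. The 13-base probe of miR-139-3p had no spot well above background on any array, so its 14-base probe alone carried the signal. That probe had 100% of its spots well above background on the EAM arrays and 33.3%, 100% and 0% on LAD arrays 1 to 3. Near background, differences shrink toward 0 on the log2 scale, and how far this holds for either miR-139 arm was not tested. When arrays were scaled by the upper quartile of their detected probes (those well above background on all 7 arrays), miR-139-3p was at -0.84 (EAM minus LAD). Without scaling it was at 0.58, with median centring at 0.11 and by total gene signal, where the undetected LAD array 3 is set to a floor, at 1.65.

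Probes of different length gave the same direction for each detected arm that differed. For miR-140-3p the 14-base probe differed by 1.27 (log2, EAM minus LAD) and the 15-base probe by 0.80, and for miR-140-5p the 20-base probe by 1.01 and the 21-base probe by 0.83. In both arms the shorter and dimmer probe showed the larger difference. The 2 probes of miR-151-5p differed by 1.42 and 1.45. For miR-139-5p the order was the other way, with 0.94, 1.17 and 1.19 for the 15-, 16- and 17-base probes. Its 15-base probe had no spot well above background on the LAD arrays, and its 17-base probe had 100%, 90% and 0% on LAD arrays 1 to 3. The 13- and 14-base probes of miR-139-3p differed by -0.07 and -0.05.

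**Figure D3:**
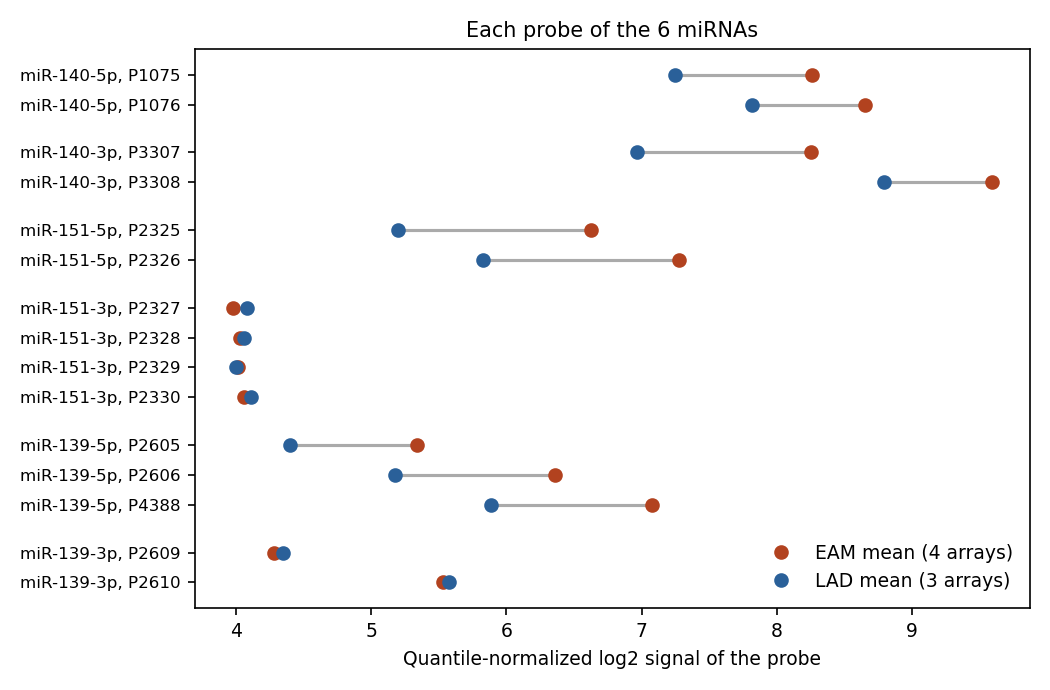
Quantile-normalized log2 signal (horizontal axis) of each probe of the 6 arms as the mean of the 4 EAM arrays and of the 3 LAD arrays, joined by a line; probes are labelled by arm and by the last part of their array name. Every probe of miR-140-5p, miR-140-3p, miR-151-5p and miR-139-5p lies to the right in EAM, and the 2 means nearly coincide for miR-139-3p and miR-151-3p.

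The size of the differences depended on the scaling more than their direction did. Over 21 or 22 alternatives per arm, the 4 arms stayed higher in EAM each time, at 0.55 to 2.34 (log2) for miR-140-5p, 0.75 to 2.56 for miR-140-3p, 0.87 to 4.14 for miR-151-5p and 0.57 to 2.08 for miR-139-5p. Many of these alternatives could not turn the direction, because EAM and LAD values of the 4 arms do not overlap in the reported values. This holds for other filters, other variance models, blocking by replicate number and leaving out 1 array. Only those of background, scaling and summary could turn it. The 4.14 of miR-151-5p is by total gene signal, where LAD array 3 holds the 0.1 that undetected miRNAs are given. Without scaling between arrays the differences of miR-140-5p and miR-140-3p were 2.34 and 2.56, but the median over all tested miRNAs was then 1.17. Relative to the median of the same setting, miR-151-5p was at 1.13 in the reported values, 1.20 without scaling and 1.25 when scaled by the upper quartile of detected probes. miR-139-5p was at 0.87, 0.83 and 1.12 in these settings, and miR-140-3p at 0.73, 1.39 and 0.82. By total gene signal, which was quantile-normalized in this setting, these were 3.41 for miR-151-5p, 1.17 for miR-139-5p and 0.32 for miR-140-3p. In the authors' table the differences were 1.06 for miR-140-3p, 0.93 for miR-140-5p, 1.04 for miR-151-5p, 0.74 for miR-139-5p and -0.03 for miR-139-3p. The lower values of miR-151-5p and miR-139-5p there are close to those without background correction (1.03 and 0.74).

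**Figure D4:**
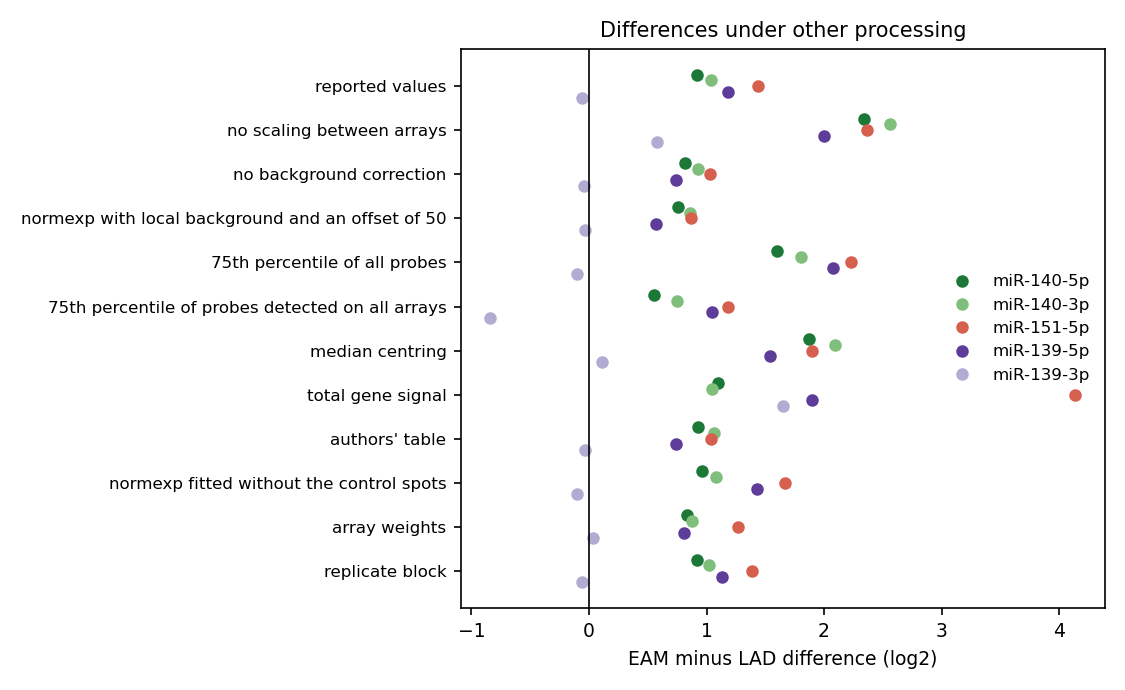
EAM minus LAD difference (log2, horizontal axis) of the 5 tested arms in the reported values and under other background correction, scaling, summary or variance model, 1 point per arm and setting. Points of miR-140-5p, miR-140-3p, miR-151-5p and miR-139-5p lie right of 0 in every row, while miR-139-3p runs from -0.84 to 1.65.

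The miRNAs with the most similar course over the 7 arrays were found by the root mean square difference between profiles, each centred on its own mean. The nearest to miR-140-5p was miR-361-5p (0.098 log2 units), which lies within Chm, followed by miR-378b (0.107) and miR-467b-5p (0.111). miR-378b was also the nearest to miR-140-3p (0.105), ahead of miR-6516-5p (0.129) and miR-140-5p itself (0.130). The nearest to miR-151-5p was miR-6516-3p (0.096), with 6.92, 6.64, 7.26 and 7.17 in EAM and 5.90, 5.72 and 5.02 in LAD. miR-6516-5p (0.134) and miR-378d (0.148) came next. miR-139-5p had looser neighbours, miR-3535 (0.159), miR-203-3p (0.194) and miR-6516-5p (0.196). miR-203-3p, one of the epithelial markers, was detected on 4 of 4 EAM arrays and 0 of 3 LAD arrays. miR-139-3p lay nearest to miR-5099 (0.095), miR-674-3p (0.099) and miR-706 (0.103), all flat between the models at 0.01 to 0.04. All these profiles share the same 7 arrays and their brightness, and 10 of the 15 pairings were kept without background correction.

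miR-28a, miR-28c and miR-708 belong to the same sequence family as miR-151, and miR-28a lies within Lpp. miR-28a-5p had log2 signals of 5.50, 5.94, 5.86 and 6.01 in EAM and 4.78, 5.48 and 4.56 in LAD, a difference of 0.89 (standard error 0.24; limma adjusted p = 0.0207). It was detected on all EAM arrays and on LAD array 2. miR-28c differed by 0.62 (limma adjusted p = 0.0180) and miR-28a-3p by 0.34 (limma adjusted p = 0.0369). miR-28c was detected on LAD array 2 only among the LAD arrays and miR-28a-3p on none of them, so these 3 values rest on signal near background. All 3 entered the fit through EAM alone, the group where they are high, so their p values are no support for the direction. miR-708-5p and miR-708-3p were not detected on any array, nor was miR-28b, an array name outside the list of relatives.

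miR-497b, which shares the seed of miR-140-3p, did not follow it. Its sequence (RefSeq, GRCm38.p6, chr11:70234763-70234786, minus strand) is shown because outside the seed, in capitals, it differs from miR-140-3p.
mmu-miR-497b: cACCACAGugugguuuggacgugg
The log2 signals of miR-497b were 7.24, 7.15, 4.76 and 3.99 in EAM and 3.97, 4.25 and 3.97 in LAD. It was detected on EAM arrays 1 and 2 only and was not tested.

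Among other miRNAs inside host genes, the share that passed as higher in EAM was near that of all tested miRNAs in the reported values. The share that passed as lower was smaller. The list was chosen with earlier results of these data known, so nothing is read from these shares. The list held 59 names. A sequence entry was found for 58 of them, each with at least 1 gene within a stated host. A name can stand for more than 1 gene, and which gene gave the signal was not tested. Of the 59 names, 38 were tested. In all, 16 were higher in EAM, 3 were lower and 19 did not pass (limma, adjusted p under 0.05). Over all tested miRNAs, 36.2% were higher, 23.6% lower and 59.8% passed in either direction. Most of the 16 were not detected on every LAD array and entered the fit through EAM alone, where they are high. Their calls are thus no support for the direction. Among miRNAs detected on all 7 arrays, 7 of the list were higher and 3 lower of 25 tested. Over all 251 such miRNAs, 52 were higher and 83 lower. By total gene signal 4 of the list were higher and 3 lower, beside 85 and 81 of all 423 tested miRNAs. Without LAD array 1 the list had 8 higher and 5 lower, beside 80 and 67 of the 423. The median difference was 0.54 (log2), against 0.31 over all tested miRNAs. Highest toward EAM among those that passed were miR-98-5p of Huwe1 (difference 1.40, limma adjusted p = 0.0187), miR-7a-5p of Hnrnpk (difference 1.17, adjusted p = 0.0264), miR-425-5p of Dalrd3 (difference 1.13, adjusted p = 0.0225) and miR-33-5p of Srebf2 (difference 0.99, adjusted p = 0.0173). miR-33-5p was not detected on 1 LAD array and entered the fit through EAM alone. Each of the 4 had its lowest value on LAD array 3, as had miR-140-3p, miR-140-5p, miR-151-5p and miR-139-5p. The 3 lower in EAM were miR-32-3p of Tmem245 (difference -1.36, limma adjusted p = 0.0201), miR-149-5p of Gpc1 (difference -0.996, adjusted p = 0.00916) and miR-191-3p of Dalrd3 (difference -0.44, adjusted p = 0.0207). The limma fit takes 1 variance for both groups, while LAD arrays varied more, so these p values can be too small. The count was 2 without EAM array 3 and also 2 without EAM array 4, against 19 with all arrays.

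**Figure D5:**
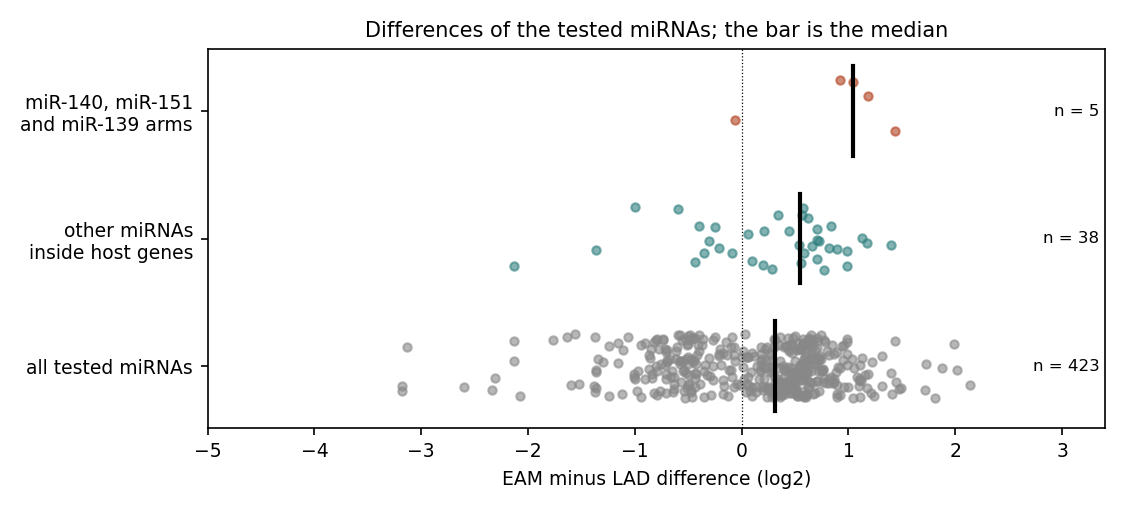
EAM minus LAD difference (log2, horizontal axis) of the 5 tested arms of miR-140, miR-151 and miR-139, of the 38 other tested miRNAs inside host genes and of all 423 tested miRNAs, 1 point per miRNA with the median as a bar. The medians are 1.04, 0.54 and 0.31, and 4 of the 5 arms lie between 0.92 and 1.44; the place of these arms follows from how they were picked and is not set against the other rows.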

How the data were processed

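Cy3-labelled RNA, 100 ng per array, was hybridised to 7 one-colour Agilent arrays (58594 spots; without controls, 56430 spots of 4415 probes). Per the file headers, Agilent Feature Extraction 10.7.3.1 gave each spot's intensity, not scaled between arrays, and 0 or 1 marks of detection. The authors' deposited values are in log2 units, and RMA is named in the submitters' processing notes with no version or role. EAM and LAD arrays lay in separate slide columns per the deposited scan names, so column and model cannot be told apart.

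Mean spot signal was background-corrected (normexp, foreground only, all spots), quantile-normalized, log2 transformed and summarized as the median of a probe's spots without outlier marks, then by median polish over probes (limma 3.58.1 in R 4.3.3). The 423 miRNAs detected on all arrays of EAM or of LAD were fitted with lmFit and eBayes, with Benjamini-Hochberg adjustment and 0.05 as the threshold. The fit was run on simulated data with the same spread in both groups. That run cannot show how the larger spread of the LAD arrays bears on the p values. No spot was saturated, and precision is limited by how few arrays there are.

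The miRNA names and lists were chosen with earlier results of these data known. Named besides were the 3 nearest profiles per arm, relatives in sequence, markers, and of the host-gene list up to 4 of the largest passing differences in each direction (3 passed as lower in EAM). Alternatives covered background, scaling, summary, filters, variance model, replicate number and each array. Normexp fitted without control spots was added after seeing the data. The 75th-percentile values had a floor of 1. Differences by total gene signal used that signal after quantile normalization, while its values per array are given in unscaled intensity units.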

Additional observations from a re-analysis of the deposited data

How the results depend on the processing

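The number of passing arms among miR-140, miR-151 and miR-139 was 3 or 4 in all alternatives but the replicate block, and 3 to 4 when 1 array was left out. When scaled by the upper quartile of detected probes, the 3 were miR-140-3p and miR-151-5p, higher in EAM, and miR-139-3p, lower in EAM. In that setting the groups overlapped for miR-139-5p, with LAD array 1 at 5.68 (log2) and the EAM arrays at 5.46 to 5.83. Without any 1 EAM array miR-140-5p no longer passed, and by total gene signal miR-151-5p no longer passed. With the replicate block limma passed 0 of the 5, with 4 at an unadjusted p under 0.05, and 0 of the 38 other miRNAs inside host genes, with 17 unadjusted. Same-numbered arrays did not deviate together (r = 0.198, -0.161 and -0.192), so no pairing by number was seen, though 3 such values cannot exclude one. The count of those other miRNAs, 19 as reported, was 31 without scaling and with median centring, 29 with the 75th percentile of all probes, 7 by total gene signal and 10 among miRNAs detected on all arrays, where 25 were tested. It was 2 to 25 when 1 array was left out, with 7 without LAD array 3, 8 without EAM array 1 and 6 without EAM array 2. Over all tested miRNAs, the count of 253 was 75 to 344 when 1 array was left out, and the split was 153 higher and 100 lower in EAM as reported, 299 and 2 without scaling, 265 and 54 with median centring, and 77 and 117 when scaled by the upper quartile of detected probes. The cause was not tested. Signal near background limits miR-139-3p, miR-139-5p on LAD arrays 2 and 3, miR-151-5p on LAD array 3 and miR-151-3p throughout. It also limits the shorter probe of miR-151-5p on LAD arrays 1 and 2.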

Other observations

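Among the other miRNAs inside host genes, miR-32 of Tmem245 had arms with differences of opposite sign, a pair named after its values were seen. miR-32-5p had log2 signals of 5.45, 5.54, 5.80 and 5.94 in EAM and 4.77, 5.36 and 4.47 in LAD, a difference of 0.82. It was not detected on LAD array 3 and entered the fit through EAM alone, where it is high. miR-32-3p had 5.33, 5.54, 5.44 and 5.45 in EAM and 7.22, 5.79 and 7.38 in LAD, a difference of -1.36. The gap between these arms, 2.18, ranked 3 of 47, after those of miR-467c and miR-467e.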
